A study of Mus musculus with 11 samples.

Results

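The ephrin, semaphorin, plexin and netrin guidance genes of mouse kidney were described across 11 arrays, with the members chosen from a list of 46 genes in 5 families. Of these, 45 had a probe set with a single gene name, among 18193 such genes in all, and Ephb2 was not analysed here. They comprised 10 Eph receptors, 8 ephrins, 12 semaphorins, 9 plexins and neuropilins, and 6 netrins and netrin receptors. Where a gene had several probe sets, the one with the highest mean log2 intensity stood for it.

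The tissue was embryonic day 17 kidney. The study set kidneys homozygous for Robo2, the receptor of the Slit guidance ligands, against wild-type kidneys. The labels give neither the allele, the strain nor whether a sample was 1 kidney, 1 animal or a pool. The titles divide the arrays into 3 series: E17R2 with 3 homozygous arrays (numbered 2, 8 and 9 in their titles) and 3 wild-type arrays (1, 3 and 7), R2E17 with 1 homozygous and 1 wild-type array, and R2NB with 3 homozygous arrays (3, 4 and 5) and no wild-type array. The sources used here do not say what the letters NB stand for. Nothing says that samples of a group were separate animals, so the p-values reflect the variation among these arrays alone, and that variation may be technical.

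These families signal between neighbouring cells and were first studied in growing axons. Ephrins are membrane-held ligands of the Eph receptor tyrosine kinases. Semaphorins act through plexins, and most of the secreted class 3 semaphorins also need a neuropilin as co-receptor, Sema3e being an exception that binds plexin-D1 directly. Netrins are laminin-related secreted proteins read by Dcc, neogenin and the Unc5 receptors. In the kidney, ephrin-B2 and its receptor EphB4 are known from arteries and veins, Sema3a from podocytes and the ureteric bud, and netrin-4 from basement membranes.

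The deposited values are RMA intensities on a linear scale, which were turned to log2. By their median intensities the arrays fall into 2 sets, which may have been normalized apart. The R2E17 and R2NB arrays formed a set of 5 with median intensities of 47.1 to 53.4, and the E17R2 arrays a set of 6 with medians of 23.4 to 24.6. Levels are therefore compared within a set, or after a scaling that is named. Some free-text labels speak of human brain, against the mouse and kidney labels. Of 9 brain markers, 5 (Neurod1, Neurod6, Slc17a7, Gad1 and Olig2) were not above the detection bound on any array. Among the other brain markers, Mbp and Syt1 were above it on all 11 arrays, Gfap on 8 and Snap25 on 4. The 8 endothelial and the 3 loop of Henle markers were above it on all 11. In RNA quality 1 array, the R2E17 wild-type one, stood apart: its Gapdh control probe sets read 0.702 higher at the 3' than at the 5' end on the log2 scale, against -0.0126 to 0.218 on the other 10 arrays. In E17R2 this 3' to 5' measure averaged 0.0618 ± 0.0266 for homozygous and 0.0713 ± 0.0800 for wild-type kidneys (SD over 3 arrays each). An exact permutation test, 2-sided, gave p = 1, where 0.1 is the smallest possible. The Robo2 probe set read 2.03, 2.37 and 2.33 log2 in E17R2 homozygous arrays, against 3.13, 3.68 and 3.16 in wild-type arrays, and 3.37 in the R2E17 homozygous against 3.96 in the wild-type array. All Robo2 values, including 3.28 to 3.99 in R2NB, lay below the detection bound, so no fold is given.

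Nearly all of these guidance genes were detected in the kidney. The bound was the 95th percentile of 80 olfactory and vomeronasal receptor probe sets on the same array, genes for which no kidney level was assumed. It lay at 4.09 to 4.62 log2 on the E17R2 arrays and 4.66 to 4.81 log2 on the others. Of the 45 genes, 43 exceeded it on all 11 arrays, against 11864 of all 18193 genes. The exceptions were Epha5, above it on 2 arrays, and Dcc, the classical netrin receptor of commissural axons, above it on 3 arrays. Intensities of different probe sets depend on the probes, so the genes are not ranked against each other.

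The 9 detected Eph receptors had means of 5.16 to 8.47 log2 in E17R2 homozygous and 5.12 to 8.30 log2 in wild-type arrays. The 8 ephrins spanned 5.74 to 9.80 in homozygous and 5.55 to 9.89 in wild-type arrays on the same scale. Semaphorins, all 12 detected, spanned 5.16 to 10.43 and 5.29 to 10.55 log2 in the same order of genotypes. The 9 plexins and neuropilins spanned 6.24 to 9.86 log2 in homozygous and 6.00 to 9.93 log2 in wild-type arrays. The 5 detected netrin genes spanned 6.68 to 9.63 and 7.05 to 9.69 log2 for homozygous and wild-type arrays. The netrin range began lower in homozygous arrays by the Ntn4 difference described with its family.

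The first comparison asked whether homozygous and wild-type E17R2 kidneys differed in these genes. None of the 45 passed the test: the smallest adjusted p was 0.840 (limma, Benjamini-Hochberg over all genes, threshold 0.05). Over all 18193 genes the same test called 0, which is 0%. Without adjustment, 6 of the 45 had p under 0.05, 2 higher and 4 lower in homozygous arrays, where the whole table had 1019 genes or 5.6%. The 3 homozygous arrays lay all above or all below the 3 wild-type arrays for 8 of the 45 genes, 5 higher and 3 lower, against 2236 genes or 12.3% of the table. The median difference, homozygous minus wild-type, was 0.01 log2 over the 45 and -0.01 over all genes, with 24 positive and 21 negative. The 6 genes were Epha3 and Sema5a, higher, and Efna1, Sema3b, Sema4a and Ntn4, lower. No member had a limma adjusted p under 0.840, and the error terms of differences are standard errors.

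**Figure D1:**
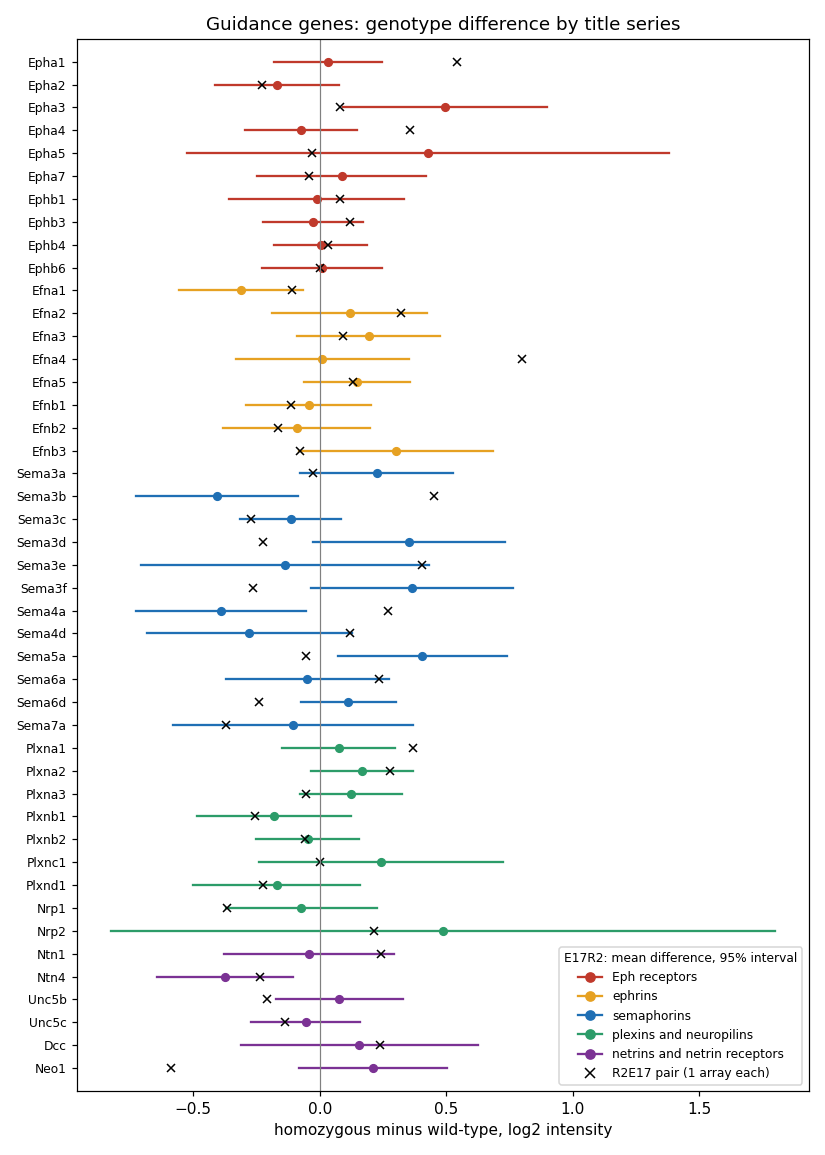
Difference homozygous minus wild-type in log2 intensity for each of the 45 guidance genes, grouped by family colour. Points with 95% intervals are the E17R2 series (3 arrays against 3) and crosses the R2E17 pair (1 array each, no interval). E17R2 differences lie between -0.41 and 0.50, and the crosses lie on the same side of 0 for 23 of the 45 genes.

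Among the Eph receptors, the median difference was 0.01 log2 with 6 positive and 4 negative. Epha3, a receptor that binds ephrin-A5, read 8.29, 8.51 and 8.60 log2 in homozygous arrays, against 8.09, 8.20 and 7.63 in wild-type arrays. The groups did not overlap, although wild-type arrays 1 and 3 came close to homozygous array 2. The difference was 0.50 ± 0.17 log2 (95% interval 0.09 to 0.90, limma adjusted p = 0.840). A second Epha3 probe set above the bound on 9 arrays differed by 0.45. Epha2, an epithelial receptor for ephrin-A1, read 7.05, 7.08 and 6.88 log2 in homozygous arrays, against 7.02, 7.25 and 7.23 in wild-type arrays. Its groups overlapped, with a difference of -0.17 ± 0.10 (limma adjusted p = 0.841). Ephb4, the venous receptor, gave means of 7.44 log2 in both genotypes and a difference of 0.00 ± 0.08, with a 95% interval of -0.18 to 0.19. The other detected receptors, Epha1, Epha4, Epha7, Ephb1, Ephb3 and Ephb6, differed by -0.08 to 0.09 on their main probe sets. Other probe sets detected on all 11 arrays gave 0.35, -0.03 and 0.05 for Epha4 and 0.17 for Epha7.

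The ephrins, the ligands of these receptors, had a median difference of 0.07 log2, 5 positive and 3 negative. Efna1, the main ligand of EphA2, read 7.86, 7.98 and 7.70 log2 in homozygous arrays, against 8.08, 8.26 and 8.13 in wild-type arrays. Every homozygous value lay below every wild-type value. The difference was -0.31 ± 0.10 log2 (95% interval -0.56 to -0.06, limma adjusted p = 0.840), and -0.16 on the gene's other probe set. Efnb3, a transmembrane ephrin, read 6.83, 7.12 and 7.46 log2 in homozygous arrays, against 6.75, 6.86 and 6.90 in wild-type arrays. The homozygous values spread widely and overlapped the wild-type ones, with a difference of 0.30 ± 0.16. Efna5, a lipid-anchored ligand that binds EphA3, was slightly higher without overlap, at 8.03, 8.07 and 8.22 log2 in homozygous against 7.96, 7.90 and 8.01 in wild-type arrays. Its difference was 0.15 ± 0.09. Efnb2, the arterial ligand of EphB4, differed by -0.09 ± 0.12, with a 95% interval of -0.38 to 0.20.

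The semaphorins, the largest family, also had the most genes at an unadjusted p under 0.05, 3 of 12, against 5.6% of all genes. Their median difference was -0.08 log2. Sema3b, a secreted semaphorin, read 6.02, 5.99 and 5.59 log2 in homozygous arrays, against 6.20, 6.27 and 6.36 in wild-type arrays. The groups did not overlap, and the difference was -0.41 ± 0.13 (95% interval -0.73 to -0.09, limma adjusted p = 0.840). Its other probe sets gave -0.05 and -0.23. Sema5a, a transmembrane semaphorin with thrombospondin repeats, read 7.63, 7.78 and 7.78 log2 in homozygous arrays, against 7.49, 7.46 and 7.03 in wild-type arrays. The difference was 0.41 ± 0.14 without overlap (limma adjusted p = 0.840), yet a second probe set that was detected on all 11 arrays gave -0.09. Sema4a, a membrane-bound semaphorin, read 5.52, 5.74 and 5.45 log2 in homozygous arrays, against 5.70, 6.09 and 6.10 in wild-type arrays. Its groups overlapped at homozygous array 8 and wild-type array 1, with a difference of -0.39 ± 0.14 and -0.00 on its second probe set. Sema6d, a transmembrane ligand of plexin-A1, was higher by 0.11 ± 0.08 without overlap. Sema3a and Sema3c, secreted ligands, differed by 0.23 ± 0.13 and -0.11 ± 0.08. Sema3f, a ligand of neuropilin-2, gave 0.36 ± 0.17 on a main probe set of the kind that can cross-hybridise, against -0.04 and -0.09 on its other probe sets.

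None of the 9 plexins and neuropilins, the semaphorin receptors, had an unadjusted p under 0.05, and their median difference was 0.08 log2. Plxna2, a receptor for class 3 and class 6 semaphorins, read 6.99, 6.81 and 6.95 log2 in homozygous arrays, against 6.72, 6.78 and 6.75 in wild-type arrays. The groups did not overlap, but the difference was 0.17 ± 0.08, and the other 3 probe sets gave -0.05, 0.04 and 0.03. Plxna3, which pairs with neuropilin-2 as a Sema3f receptor, read 6.69, 6.75 and 6.80 log2 in homozygous arrays, against 6.56, 6.60 and 6.72 in wild-type arrays. These groups overlapped narrowly, with a difference of 0.12 ± 0.08. Plxnb2, a receptor of class 4 semaphorins, Plxnd1, the endothelial plexin, and Nrp1, the neuropilin that also binds VEGF-A, differed by -0.05 ± 0.09, -0.17 ± 0.14 and -0.07 ± 0.13.

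Among the netrin genes, 1 of 6 had an unadjusted p under 0.05. Ntn4, which encodes a netrin of basement membranes, read 6.65, 6.88 and 6.49 log2 in homozygous arrays, against 7.06, 7.07 and 7.03 in wild-type arrays. The wild-type arrays lay close together, and all 3 homozygous arrays lay below them. The difference was -0.37 ± 0.11 (95% interval -0.65 to -0.10, limma adjusted p = 0.840), and -0.06 on a second probe set that was above the bound on 3 arrays only. Neo1, which encodes the netrin and repulsive guidance molecule receptor neogenin, read 8.75, 8.86 and 8.87 log2 in homozygous arrays, against 8.77, 8.71 and 8.37 in wild-type arrays. The groups overlapped and differed by 0.21 ± 0.12. Ntn1, Unc5b and Unc5c, a secreted netrin and its repulsive receptors, differed by -0.04 ± 0.14, 0.08 ± 0.11 and -0.06 ± 0.09.

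**Figure D2:**
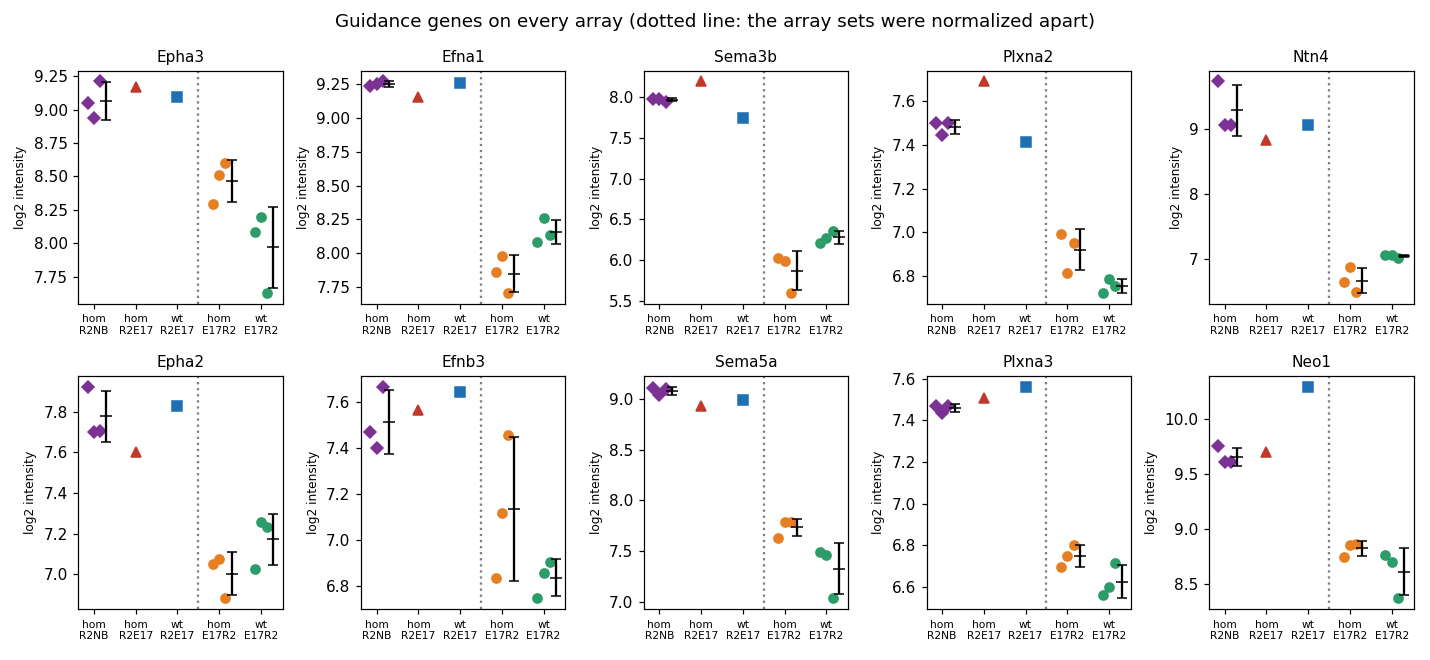
Log2 intensity on every array for the guidance genes described with all their values, 1 panel a gene, homozygous left of wild-type within each title series. Each point is 1 array, bars are the mean ± SD of groups of 3, and the dotted line parts the sets that may have been normalized apart. Efna1, Sema3b and Ntn4 show 3 homozygous E17R2 points below 3 wild-type points, and Epha3 and Sema5a the opposite.

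Homozygous array 9 stood apart from the other E17R2 arrays, and the homozygous spread was larger: the median SD over the 45 genes was 0.16 log2 in homozygous and 0.10 in wild-type arrays, against 0.14 and 0.12 over all genes. Nrp2, the neuropilin for Sema3f and VEGF-C, read 7.69, 7.91 and 9.82 log2 on homozygous arrays 2, 8 and 9, against 8.14, 8.24 and 7.57 on wild-type arrays 1, 3 and 7. Array 9 alone was high, and 2 further Nrp2 probe sets differed by 0.72 and 0.46. The summed intensity of 6 smooth muscle markers was 33330 on homozygous array 9, against 3458 and 4007 on the other homozygous arrays and 4345 to 4780 on the wild-type arrays. Its part in the Nrp2 value was not tested. Without array 9 the Nrp2 difference was -0.19 ± 0.22, in place of 0.49 ± 0.55 with it.

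Without array 9, 3 of the 45 genes had an unadjusted p under 0.05, in place of 6. The share over all genes was 5.6% with array 9 and is not given here without it. The 3 genes were Efna1 at -0.24 log2, Sema3b at -0.27 and Ntn4 at -0.28, with limma adjusted p-values of 0.852, 0.838 and 0.852. Epha3 gave 0.43, Sema5a 0.38 and Sema4a -0.33, and no longer had an unadjusted p under 0.05. The semaphorin median moved to 0.06 log2 without this array, Efnb3 to 0.14 in place of 0.30 and Epha2 to -0.11 in place of -0.17. No difference of these 6 genes changed sign.

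Wild-type array 7 had the lowest reading of Epha3, Sema5a and Neo1 among the E17R2 arrays. Without it Epha3 differed by 0.32 in place of 0.50, Sema5a by 0.26 in place of 0.41 and Neo1 by 0.09 in place of 0.21. Its 4 liver markers summed to 12030, against 1655 to 6205 on the homozygous arrays and 2020 and 2080 on the other wild-type arrays, and their part in these values was not tested. Without homozygous array 2, Efnb3 differed by 0.45. With the mean of all probe sets of a gene, Epha3 differed by 0.29, Sema5a by 0.14, Plxna2 by 0.05, Neo1 by 0.12, Sema3b by -0.23 and Ntn4 by -0.22. With the R2E17 pair added, which makes 4 arrays against 4, and the title series as a term, Neo1 differed by 0.01, Sema3b by -0.19 and Plxna3 by 0.08.

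Epha5, a receptor best known from neurons, was above the bound on 2 arrays, at 4.76 log2 on E17R2 homozygous array 9 and 4.96 on R2NB array 5, against 2.95 to 3.88 on the other arrays. Snap25, a marker of neurons and chromaffin cells, read 6.39 and 7.24 log2 on these arrays. It was also high on E17R2 wild-type arrays 1 and 3, at 6.03 and 5.58, where Epha5 read 3.88 and 3.16. The 6 adrenal cortex markers summed to 137 on E17R2 homozygous array 9 and 292 on R2NB array 5. They summed to 8609 on R2NB array 4, where Epha5 read 3.13. On the same 3 arrays the 7 measured sympathetic neuron and chromaffin markers summed to 853, 5275 and 2399. The part of nerve or adrenal tissue in the Epha5 values was not tested.

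**Figure D3:**
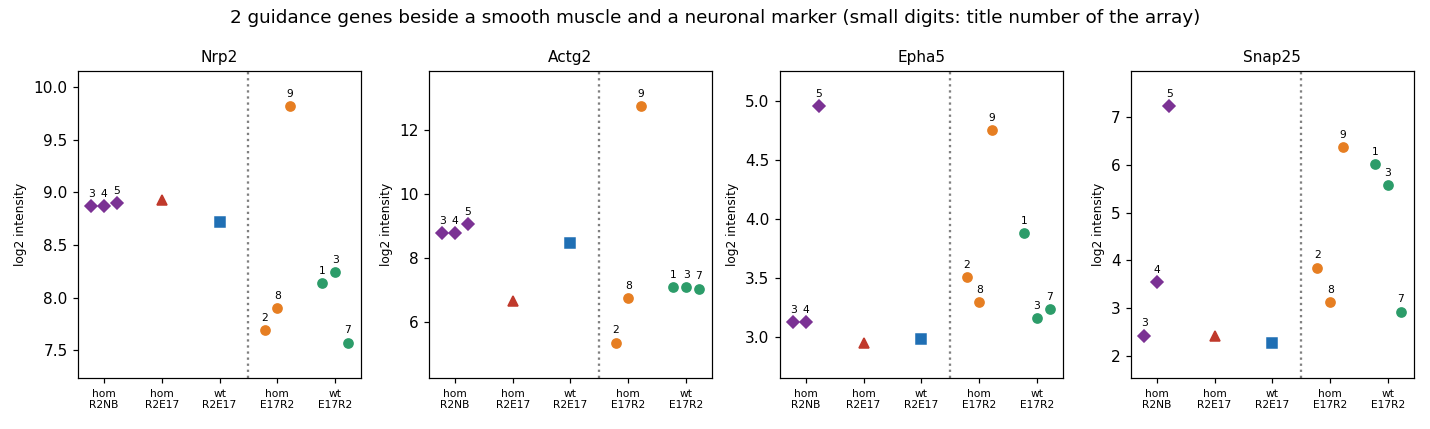
Log2 intensity on every array of Nrp2 and Epha5 beside the smooth muscle marker Actg2 and the neuronal marker Snap25, homozygous left of wild-type, with small digits giving the array numbers. Nrp2 and Actg2 are both highest on E17R2 homozygous array 9, at 9.82 and 12.76, and Epha5 is high on that array and on R2NB array 5.

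Markers of kidney cell types also differed between the E17R2 genotypes. The summed intensity of 8 endothelial markers was 2260 to 2994 in homozygous and 3240 to 3523 in wild-type arrays. The 8 proximal tubule markers summed to 1455 to 1878 in homozygous and 2342 to 2660 in wild-type arrays, and the 5 measured of 7 podocyte markers to 1178 to 1939 and 2286 to 2329. The 7 stromal markers went the other way, at 14322 to 18044 in homozygous and 11762 to 13570 in wild-type arrays. Efna1, Sema3b and Ntn4 were thus lower on the arrays with lower epithelial and endothelial marker sums, and the part of tissue composition in these values was not tested. In bulk samples, fewer cells of a type and less RNA per cell cannot be told apart.

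The R2E17 pair asks the same genotype question with 1 array each, so it has no test. The median difference, homozygous minus wild-type, was -0.03 log2 over the 45 genes and 0.01 over all genes, with 20 positive, 23 negative and 2 with equal values. With the mean of all probe sets of a gene in place of the main one, the median over the 45 was 0.10, and after quantile normalization it was -0.10, so its sign is not settled. Relative to the median gene of each array it was -0.14 over the 45 and -0.11 over all genes. The difference had the sign of the E17R2 difference for 23 of the 45 genes or 51.1%, against 39.7% of all genes. Genes with equal values in the pair count as not matching, which lowers both shares. Of all 18193 genes, 9249 were positive, 7236 negative and the rest equal. By family the share was 7 of 8 ephrins, 7 of 9 plexins and neuropilins, 4 of 10 Eph receptors, 3 of 6 netrin genes and 2 of 12 semaphorins. The largest positive difference was that of Efna4, a lipid-anchored ephrin, at 7.96 log2 in the homozygous and 7.16 in the wild-type array. The wild-type array of this pair is the one with the high 3' to 5' reading, and 4 skeletal muscle markers summed to 3180 in the homozygous against 226 in the wild-type array. The part of either in the pair's differences was not tested.

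Of the genes that differed without overlap in E17R2, Efna1 read 9.15 log2 in the R2E17 homozygous and 9.26 in the wild-type array, and Ntn4 read 8.82 in the homozygous and 9.06 in the wild-type array. On these main probe sets both were lower in the homozygous array, as in E17R2. The pair went the other way on the second probe set of each gene. Homozygous minus wild-type was 0.86 there for Efna1, detected on all 11 arrays, and 0.70 for Ntn4, above the bound on 3 arrays. Sema3b read 8.19 log2 in the homozygous and 7.74 in the wild-type array, and Sema5a 8.93 and 8.99 in the same order. Sema6d read 9.97 log2 in the homozygous and 10.21 in the wild-type array. On these main probe sets the pair went opposite to E17R2 for the 3 semaphorins, by only -0.05 for Sema5a. A second Sema5a probe set detected on all 11 arrays gave -0.09 in E17R2 and -0.42 in the pair, the same direction. Of the other Sema3b probe sets, 1 gave -0.23 and -0.21, above the bound on 7 arrays. The other, detected on all 11 arrays, gave -0.05 and 0.40. Efna5 read 8.79 in the homozygous and 8.66 in the wild-type array, in the E17R2 direction. Epha3 read 9.17 in the homozygous and 9.09 in the wild-type array, a small difference of 0.08 in the E17R2 direction. Plxna2 read 7.69 and 7.41, which is 0.28 higher in the homozygous array.

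The difference between both genotype contrasts was tested in 1 limma model over all 11 arrays, each centred on its median gene, in which the single R2E17 arrays were assumed to vary like the groups of 3. None of the 45 genes was called (smallest adjusted p = 0.343), against 2 of 18193 genes or 0.011%. Without adjustment 5 of the 45 or 11.1% had p under 0.05, close to the 11.7% of all genes. Neo1 came first, with R2E17 values of 9.71 log2 in the homozygous and 10.30 in the wild-type array. Its genotype difference was lower in the R2E17 pair than in E17R2 by -0.95 ± 0.23 log2 (95% interval -1.47 to -0.43, limma adjusted p = 0.343), on a probe set with the suffix of possible cross-hybridisation. A second detected Neo1 probe set without that suffix gave a pair difference of 0.03. Sema3b followed at 0.71 ± 0.22 (limma adjusted p = 0.358), then Sema3f, Sema3d and Sema5a, semaphorins at -0.78, -0.73 and -0.61. The Sema3f value also rests on a probe set with such a suffix. Other Sema3f probe sets, detected on all 11 arrays, gave pair differences of 0.31 and 0.27, against -0.04 and -0.09 in E17R2. The test rests on the R2E17 wild-type array and has no value without it.

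The contrast of the array sets, R2E17 minus E17R2 with both genotypes weighted equally, gave the largest differences in these genes. On raw values the median gene was 1.01 log2 higher in the R2E17 arrays, and 0.58 higher for the dimmest of 4 equal classes of genes against 1.05 to 1.17 for the other classes, so centring on the median gene does not align dim genes. The contrast is therefore given after centring and after quantile normalization of all 11 arrays, and genes called under both are read. Centred, 24 of the 45 were called (limma, adjusted p under 0.05), 8 higher and 16 lower in R2E17, against 47% of all genes. After quantile normalization 21 were called, 7 higher and 14 lower, against 34.6%. Under both with the same sign, 20 of the 45 were called, 7 higher and 13 lower, against 30.1% of all genes. The shares over all genes include more dim genes. Of the 45, 43 were above the detection bound on every array, against 11864 of 18193 genes, so the 2 sets are unlike in brightness. The median was -0.23 centred and -0.24 after quantile normalization over the 45 genes, and -0.16 and -0.02 over all genes. Title series and any separate normalization of the sets cannot be told apart in this contrast.

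By role, the 7 genes higher in R2E17 under both scalings were Ephb4, Efnb1, a transmembrane ephrin, Sema3b, Sema4a, Plxnb2, Ntn4 and Unc5b. The 13 lower genes were the receptors Epha2, Epha7 and Ephb3, the ligands Efna2, Efna4, Efna5 and Efnb3, the secreted semaphorins Sema3a and Sema3c, the plexins Plxna1, Plxna2 and Plxna3, and Unc5c. These calls rest on the main probe sets. After centring, other probe sets detected on all 11 arrays gave -0.49 for Unc5b, -0.00 and 0.43 for Efnb1, and 0.30 for Sema3c. Plxna4, a plexin-A gene outside the 45, was not called at -0.66 centred and after quantile normalization (limma adjusted p = 0.107 and 0.136). Of the plexin-B genes, Plxnb2 was called higher under both scalings. On its main probe set Plxnb1 was lower by -0.29 centred and -0.31 after quantile normalization (limma adjusted p = 0.0527 and 0.0465). The other Plxnb1 probe set, also above the bound on all 11 arrays, gave 0.37 centred, so the direction of Plxnb1 is not settled. Epha5 and Dcc, the dim genes, were lower after centring (-1.84 and -0.60). After quantile normalization they gave -1.33 ± 0.52 and -0.31 ± 0.17 and were not called (limma adjusted p = 0.0818 and 0.188).

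The 8 genes with the smallest p were all called under both scalings, and their values are given here as log2 differences from the median gene of the same array. Sema4a stood at 0.99 in the homozygous and 0.84 in the wild-type R2E17 array, against -0.77, -0.55 and -0.79 in homozygous and -0.58, -0.26 and -0.20 in wild-type E17R2 arrays. Both R2E17 values lay far above every E17R2 value. The contrast was 1.44 ± 0.12 (limma adjusted p = 0.000112), and 1.20 on the second Sema4a probe set. Sema3b stood at 0.67 in the homozygous and 0.34 in the wild-type R2E17 array, against -0.65 to -0.26 in homozygous and -0.08 to 0.06 in wild-type E17R2 arrays. The sets did not overlap and the contrast was 0.72 ± 0.11 (limma adjusted p = 0.00106), but the other probe sets gave -0.08 and 0.53, and the mean of all of them 0.47.

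Ephb4 stood at 1.57 in the homozygous and 1.65 in the wild-type R2E17 array, against 1.12 to 1.20 in homozygous and 1.05 to 1.17 in wild-type E17R2 arrays. It was the member with the closest agreement among E17R2 arrays of these 8 (SD 0.05 log2, n = 6), and the contrast was 0.46 ± 0.07 (limma adjusted p = 0.00103). Ntn4 stood at 1.30 in the homozygous and 1.66 in the wild-type R2E17 array, against 0.26 to 0.58 in homozygous and 0.72 to 0.78 in wild-type E17R2 arrays. The contrast was 0.91 ± 0.18 (limma adjusted p = 0.00388). With the mean of both Ntn4 probe sets it was 0.41 and was no longer called (limma adjusted p = 0.154).

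On the lower side, Epha7, a receptor of A-class ephrins, stood at 0.10 in the homozygous and 0.26 in the wild-type R2E17 array, against 0.90 to 1.34 in homozygous and 0.80 to 1.19 in wild-type E17R2 arrays. The contrast was -0.86 ± 0.16 (limma adjusted p = 0.00256). Its other probe sets gave -0.23, -0.16 and -0.23, and the mean of all of them -0.29 was not called (limma adjusted p = 0.0972). Epha2 stood at 0.08 in the homozygous and 0.42 in the wild-type R2E17 array, against 0.64 to 0.78 in homozygous and 0.74 to 0.93 in wild-type E17R2 arrays. The sets did not overlap, with a contrast of -0.54 ± 0.09 (limma adjusted p = 0.00209).

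Plxna2 stood at 0.17 in the homozygous and 0.01 in the wild-type R2E17 array, against 0.51 to 0.71 in homozygous and 0.44 to 0.45 in wild-type E17R2 arrays. The contrast was -0.46 ± 0.08 (limma adjusted p = 0.00167), and the other 3 probe sets gave -0.55, -0.64 and -0.76. Plxna2 was thus lower in R2E17 on all 4 of its probe sets. Plxna1, a co-receptor with neuropilins for class 3 semaphorins, stood at 0.85 in the homozygous and 0.60 in the wild-type R2E17 array, against 1.16 to 1.30 in homozygous and 1.08 to 1.20 in wild-type E17R2 arrays. Its contrast was -0.46 ± 0.10 (limma adjusted p = 0.00619), and -0.28 with the mean of both probe sets. Without the R2E17 wild-type array the contrast of homozygous arrays alone was -0.38 and not called (limma adjusted p = 0.0652). Then 17 of the 45 genes were called in place of 24, against 6290 of all 18193 genes in place of 8550.

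**Figure D4:**
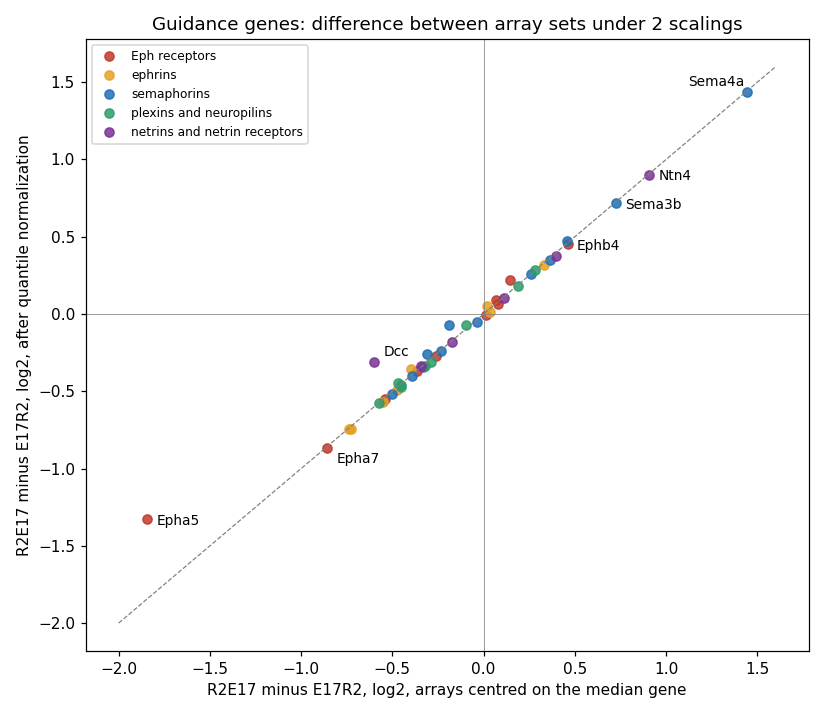
Difference R2E17 minus E17R2 in log2 for each of the 45 guidance genes, after centring each array on its median gene (horizontal axis) and after quantile normalization (vertical axis), coloured by family. Points near the diagonal have similar values under both scalings. Sema4a is highest at 1.44 under both, and Epha5 and Dcc lie off the diagonal.

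Tubule markers moved with this contrast. The 8 proximal tubule markers had a median of 1.48 log2 and the 3 loop of Henle markers 1.40 in R2E17 minus E17R2 after centring, while the 6 adrenal cortex markers had -2.46 and the 5 nephron progenitor markers -0.35. All 8 proximal tubule markers were above the bound on 9 of the arrays and 7 of them on E17R2 homozygous arrays 8 and 9. The 7 genes called higher in R2E17 under both scalings, Sema4a, Sema3b and Ntn4 among them, were thus higher in the series with higher tubule markers. The 13 called lower went the other way. The part of tissue composition in these contrasts was not tested.

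The R2NB arrays were set against the single R2E17 homozygous array, which falls in the same set by its median intensity. The spread of that lone array is not measured and was taken from the groups of 3, so a lack of calls does not show that the groups were alike. None of the 45 genes was called by limma and 0 had an unadjusted p under 0.05, whereas 2 of all genes or 0.011% were called and 589 had an unadjusted p under 0.05. Differences ran from -0.36 for Efna2, a lipid-anchored ephrin, to 0.81 for Epha5, which was high on R2NB array 5 alone. Ntn4 read 9.73, 9.06 and 9.06 log2 on the R2NB arrays, against 8.82 on the R2E17 homozygous array, a difference of 0.49 ± 0.25 (95% interval -0.09 to 1.07). Sema3b read 7.98, 7.98 and 7.94, against 8.19. Values repeated exactly between arrays in the set of 5 for 15 of the 45 genes or 33.3%, against 44.0% of all genes, but for 0 of the 45 in the set of 6. Whether this repetition lowered the measured spread was not tested.

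Further genes of the same pathways were read from the same fits. Of 23 other Eph, semaphorin, plexin and netrin family genes, all 23 had a probe set, 14 were above the bound on every array, and none was called between the E17R2 genotypes. Their median difference was 0.08 log2, with 15 positive and 8 negative, and 2 had an unadjusted p under 0.05. Sema3g, a class 3 semaphorin of endothelium, read 7.54, 7.73 and 7.11 log2 in homozygous arrays, against 8.07, 8.17 and 7.95 in wild-type arrays. All homozygous values lay below, and the difference was -0.60 ± 0.17 (limma adjusted p = 0.840). In the R2E17 pair Sema3g read 9.71 in the homozygous and 9.68 in the wild-type array. The other, Epha8, was not above the bound on any array. Between the array sets, 13 of the 23 were called after centring and 13 after quantile normalization, against 47% and 34.6% of all genes. Under both scalings 3 were higher and 8 lower in R2E17, against 30.1% of all genes called in either direction.

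Of 32 intracellular effectors and associated proteins, 29 had a probe set and 23 were above the bound on every array. None was called between the E17R2 genotypes, 1 had an unadjusted p under 0.05, and the median difference was -0.04 log2. Plxdc1, a transmembrane protein named for its plexin domain, read 5.02, 4.82 and 4.71 log2 in homozygous arrays, against 4.25, 4.32 and 4.17 in wild-type arrays. The difference was 0.60 ± 0.11 (limma adjusted p = 0.840) at a level near the bound, which it exceeded on 9 of 11 arrays. In the R2E17 pair it read 5.56 in the homozygous and 5.33 in the wild-type array. Between the array sets 13 of the 29 effectors were called after centring and 10 after quantile normalization, with 5 higher and 4 lower in R2E17 under both. These shares were near those of all genes (47%, 34.6% and 30.1%).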

How the data were processed

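Transcripts were measured on 11 Affymetrix 3' arrays, with biotin-labelled cRNA from 100 ng of total RNA per the labels' protocols. The authors deposited RMA intensity values on a linear scale; RMA is named in the submitters' processing notes, and its version and settings are not given there. All values exceeded 0, and log2 was taken with no pseudocount. The number of arrays limits the precision.

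Of 45101 probe sets, 64 were controls, 34945 had 1 gene symbol in the platform annotation, 932 had several and 9160 are unnamed here. Names were updated through a RefSeq table (GRCm38.p6), which held 34741 of the 34945. The brightest probe set by mean log2 stood for each of 18193 genes.

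Tests used limma 3.58.1 in R 4.3.3 (2-sided, lmFit and eBayes), p-values were adjusted over all genes by Benjamini-Hochberg at a threshold of 0.05, and the scripts were tested on simulated data. The genotype test used the 6 E17R2 arrays; the other contrasts used all 11 arrays in 5 groups, centred on each array's median over genes. Named in full were the members past the threshold, at most 8, and otherwise the 2 of each family with the smallest p. Sema4a, Efna5, Nrp2, Epha5, Efna4 and other members were named beside these. Alternatives changed the arrays, normalization, probe set rule, dim-gene filter and eBayes settings, and left out single arrays. The members and lists were chosen with earlier results of these data known.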

Additional observations from a re-analysis of the deposited data

How the results depend on the processing

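No member was called between the E17R2 genotypes under any alternative run, and the whole-table count was 0 except for 1 gene without wild-type replicate 7 (0 to 1 over the arrays left out in turn). Members at an unadjusted p under 0.05 numbered 6, 2 with the mean of all probe sets, and 3 to 9 with single arrays left out. Members without overlap numbered 8, and 4 with the mean of all probe sets. The shares over all genes were 5.6% and 12.3% in the main run and are not given here for the alternatives. The R2E17 pair's median of -0.03 became 0.10 with the mean of all probe sets and -0.10 after quantile normalization. For the difference between genotype contrasts, 2 genes were called in all, 4 with trend and robust settings, 0 with the mean of all probe sets, 6 with dim genes left out, and 2 to 13 with single arrays left out, none of them a member. For R2E17 minus E17R2, 8550 genes were called, 3540 with dim genes left out, where fewer genes are tested, and 7643 to 8859 with single arrays left out. Over all alternatives, members called there numbered from 17, beside 6290 of all genes, to 31, beside 9891 of all genes. With single arrays left out they numbered 24 to 27. For R2NB, 2 genes were called, 1 with the mean of all probe sets, and 2 to 18 with single arrays left out. The semaphorin median between E17R2 genotypes, -0.08, was 0.05 with the mean of all probe sets and -0.11 to 0.06 with single arrays left out. The Eph receptor, netrin, and plexin and neuropilin medians also fell on both sides of 0 over the alternatives, and the ephrin median stayed above it. No value changed sign among the differences of the members named in full. The cause of these changes was not tested.

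No paired analysis was run, because the replicate numbers in the labels do not define pairs between the groups compared. Signals near the detection bound limit what can be said of Epha5 and Dcc.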
